A study of Oryctolagus cuniculus with 16 samples.

Results

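The 6 genes described here are ENSOCUG00000029263 and ENSOCUG00000014135 on chromosome 14, ENSOCUG00000015109 on the unplaced scaffold GL019174, ENSOCUG00000014189 on chromosome 18, and the adjacent pair ENSOCUG00000016233 and ENSOCUG00000016228 on chromosome 8. They were picked from 23669 annotated rabbit genes because their levels in microglia were lower, with a low p, after PPARg overexpression, so their microglial difference is a description and not a finding. Microglia and oligodendrocyte progenitor cells (OPC) were sorted at day 7 from the hemispheres of New Zealand rabbit kits born preterm, all of which had moderate-to-severe intraventricular haemorrhage, the bleeding into the ventricles that affects preterm newborns. Kits received into the ventricle either Ad-PPARg, an adenovirus carrying PPARg and green fluorescent protein under the CMV promoter, or Ad-GFP, the vector with green fluorescent protein alone. Microglia were taken as CD11b-positive cells with low CD45 and OPC as O4-positive cells, each from 4 Ad-PPARg and 4 Ad-GFP kits (16 libraries from 10 animals, of which 6 gave both cell types). CMV is active in many cell types, and which cells took up the vector is not given in the sources used here.

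PPARg is a nuclear receptor that binds DNA with RXR when activated by lipid ligands, turns on genes of lipid uptake and storage, and in macrophages and microglia also holds down inflammatory genes. Microglia are the resident macrophages of the brain, and OPC give rise to the myelin-forming oligodendrocytes. The deposited files identify genes by Ensembl identifier and position only, and none of the identifiers matched the reference table of gene symbols. The function of the 6 genes is therefore not stated, and PPARg itself and the lists of cell-type markers could not be looked up.

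Levels in all libraries were compared on a single scale, CPM, which is a gene's read count scaled to a common library size. TMM factors over the 16 libraries were used unless stated. Total counts were 6242342 to 17608855 in microglia and 6558459 to 15783307 in OPC libraries. The sorts were distinct in their transcriptomes, with Spearman correlations of 0.946 to 0.989 within microglia and 0.637 to 0.725 between the cell types. The 742 genes at least 16-fold higher in OPC, none of them among the 6, held 0.226 to 0.495% of counts in the microglia Ad-PPARg libraries and 0.101 to 0.337% in the microglia Ad-GFP libraries. The 828 genes at least 16-fold higher in microglia held 0.575 to 1.18% of counts in OPC. In 5 of the 16 libraries the 10 mitochondrial genes past position 7000 summed to only 50.9 to 107 CPM, against 8696 to 19476 CPM in the other 11. These 5 were microglia Ad-PPARg replicates 1 and 2, microglia Ad-GFP replicate 1 and OPC Ad-PPARg replicates 1 and 4. The first part of the animal identifier, here called the prefix, takes 6 values, each found under 1 treatment only, and all libraries of a prefix lay on the same side of this mitochondrial split. What the prefix stands for is not given in the sources used here.

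The genes differ in size and setting. ENSOCUG00000029263, called the longer chromosome 14 gene below, lies on the minus strand from 53115895 to 53176541, spans 60.6 kb and has 6 annotated exon entries with 5537 bp of exon. ENSOCUG00000014135, the shorter chromosome 14 gene, lies on the plus strand from 45995576 to 46009066, with 2 exon entries and 3510 bp of exon. ENSOCUG00000015109, the scaffold gene, lies on the minus strand from 39372 to 121455 of its scaffold and has 21 exon entries over 82.1 kb. ENSOCUG00000014189, the chromosome 18 gene, lies on the minus strand from 8938033 to 8955097, with 24 exon entries that share only 1376 bp. On chromosome 8, ENSOCUG00000016233 occupies 12495169 to 12519625 on the minus strand and ENSOCUG00000016228 occupies 12526661 to 12533670 on the plus strand, so that they point away from each other across 7035 bp with no annotated gene between them. Coordinates are those of the deposited files, whose genome build is not given in the sources used here. The span of the scaffold gene holds 1 other annotated gene, an 87 bp single-exon gene with 2 counts in all 16 libraries. The other 5 spans overlap no annotated gene.

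In microglia all 6 genes had every Ad-PPARg library below every Ad-GFP library, as did 301 of the 13041 genes tested (2.31%). The 301 were counted with TMM factors refitted within microglia, and on that scale the 6 genes were separated as well. None had an edgeR adjusted p under 0.05, and neither did any other of the 13041 genes (0%). All 6 had an unadjusted p under 0.05, with 853 genes (6.54%) lower at that level. The choice of the genes fixed these counts, and nothing is read from them.

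The longer chromosome 14 gene was lowest in p of all genes tested in microglia. Its level was 5.67, 5.69, 8.64 and 4.83 CPM in Ad-PPARg replicates 1 to 4 and 20.0, 40.7, 40.9 and 27.2 CPM in Ad-GFP replicates 1 to 4. The Ad-PPARg libraries lay close together, and the highest of them was still 2.31-fold below the lowest Ad-GFP library, which was replicate 1. The means were 6.21 ± 1.67 and 32.2 ± 10.4 CPM (SD, n = 4 each), with a fitted log2 fold change of -2.38 (SE 0.27). The gene meets its left neighbour end to end: a plus-strand gene (53066421 to 53115727) stops 167 bp from it. That neighbour was at 42.6 ± 5.02 CPM after Ad-PPARg and 48.9 ± 6.06 CPM after Ad-GFP (n = 4 each) and did not pass the test, with a log2 difference of -0.21 (SE 0.12, edgeR adjusted p = 0.504).

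The shorter chromosome 14 gene was at 4.54, 15.0, 15.3 and 12.8 CPM in Ad-PPARg replicates 1 to 4 and at 38.2, 44.3, 46.4 and 27.6 CPM in Ad-GFP replicates 1 to 4. Ad-PPARg replicate 1, the shallowest library of its group, was well below the other 3 and rested on 28 reads. The group means were 11.9 ± 5.04 and 39.1 ± 8.45 CPM (SD, n = 4 each), with a fitted log2 fold change of -1.73 (SE 0.30, adjusted p = 0.409 by edgeR). Without that library the log2 fold change was -1.50 (SE 0.18). Neither annotated neighbour, 68.2 kb to the left and 61.8 kb to the right, was expressed highly enough to be tested.

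The scaffold gene had a smaller difference and a tight Ad-PPARg group. It was at 15.2, 19.8, 18.8 and 16.9 CPM in Ad-PPARg replicates 1 to 4 and at 25.1, 32.7, 43.3 and 41.3 CPM in Ad-GFP replicates 1 to 4. The groups came within 1.26-fold of each other, at Ad-PPARg replicate 2 and Ad-GFP replicate 1. The means were 17.7 ± 2.03 and 35.6 ± 8.38 CPM (SD, n = 4 each), with a fitted log2 fold change of -1.02 (SE 0.18, adjusted p = 0.409 by edgeR).

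The chromosome 18 gene was near its detection limit after Ad-PPARg and steady after Ad-GFP. It was at 0.486, 1.51, 1.15 and 0.210 CPM in Ad-PPARg replicates 1 to 4, from 3, 18, 14 and 2 reads, and at 5.96, 6.42, 6.08 and 6.60 CPM in Ad-GFP replicates 1 to 4. The coefficient of variation of the 4 Ad-GFP libraries was 4.73%, less than the 12.8% that counting error alone gives for their 39 to 85 reads, while that of the Ad-PPARg libraries was 71.0%. Over the summed reads, 37 against 268, the Ad-GFP level was 6.70-fold higher (exact 95% interval 4.74 to 9.72, counting error only), and the fitted log2 fold change was -2.86 (SE 0.50, edgeR adjusted p = 0.409).

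The chromosome 8 genes differ widely in level. The minus-strand gene was at 16.2, 19.3, 15.2 and 19.6 CPM in Ad-PPARg replicates 1 to 4 and at 44.3, 24.3, 30.6 and 32.3 CPM in Ad-GFP replicates 1 to 4. Here Ad-GFP replicate 1, the lowest of its group for the longer chromosome 14, scaffold and chromosome 18 genes, was the highest. The means were 17.6 ± 2.22 and 32.9 ± 8.36 CPM (SD, n = 4 each), with a fitted log2 fold change of -0.92 (SE 0.19, adjusted p = 0.409 by edgeR). The plus-strand gene had 4, 1, 2 and 1 reads in Ad-PPARg replicates 1 to 4 and 25, 23, 23 and 5 in Ad-GFP replicates 1 to 4, or 0.0837 to 0.648 CPM against 0.846 to 2.40 CPM. Summed reads were 8 and 76, an 8.78-fold higher level after Ad-GFP (exact 95% interval 4.24 to 21.1, counting error only). Its fitted log2 fold change of -2.88 (SE 0.71, adjusted p = 0.409 by edgeR) became -3.76 without Ad-PPARg replicate 1, which had 4 of the 8 reads. It was only 74th in p of all genes tested, where the other 5 were 1st, 5th, 6th, 7th and 16th.

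The next gene on chromosome 8, on the minus strand from 12540856 to 12576598 and 7185 bp from the end of the plus-strand gene, was at 22.2 ± 4.23 CPM after Ad-PPARg and 31.9 ± 9.34 CPM after Ad-GFP (SD, n = 4 each). Its log2 fold change was -0.54 (SE 0.22, edgeR adjusted p = 0.425), which did not pass. Of the 10 neighbours of the 6 genes that are not among them, this gene and the left neighbour of the longer chromosome 14 gene were the only 2 with enough reads to be tested in microglia. The other 8 had group means of at most 0.644 CPM in both cell types. The 6 are not the genes of lowest p. Among genes lower after Ad-PPARg in microglia, the chromosome 8 minus-strand gene was at rank 9 in p and the plus-strand gene at rank 43. Ahead of the minus-strand gene were 4 that are not among the 6, with log2 fold changes of -0.70 to -3.51, and next after it, still ahead of the plus-strand gene, was a gene on chromosome 17 (13142387 to 13277239) with a log2 fold change of -0.86.

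**Figure D1:**
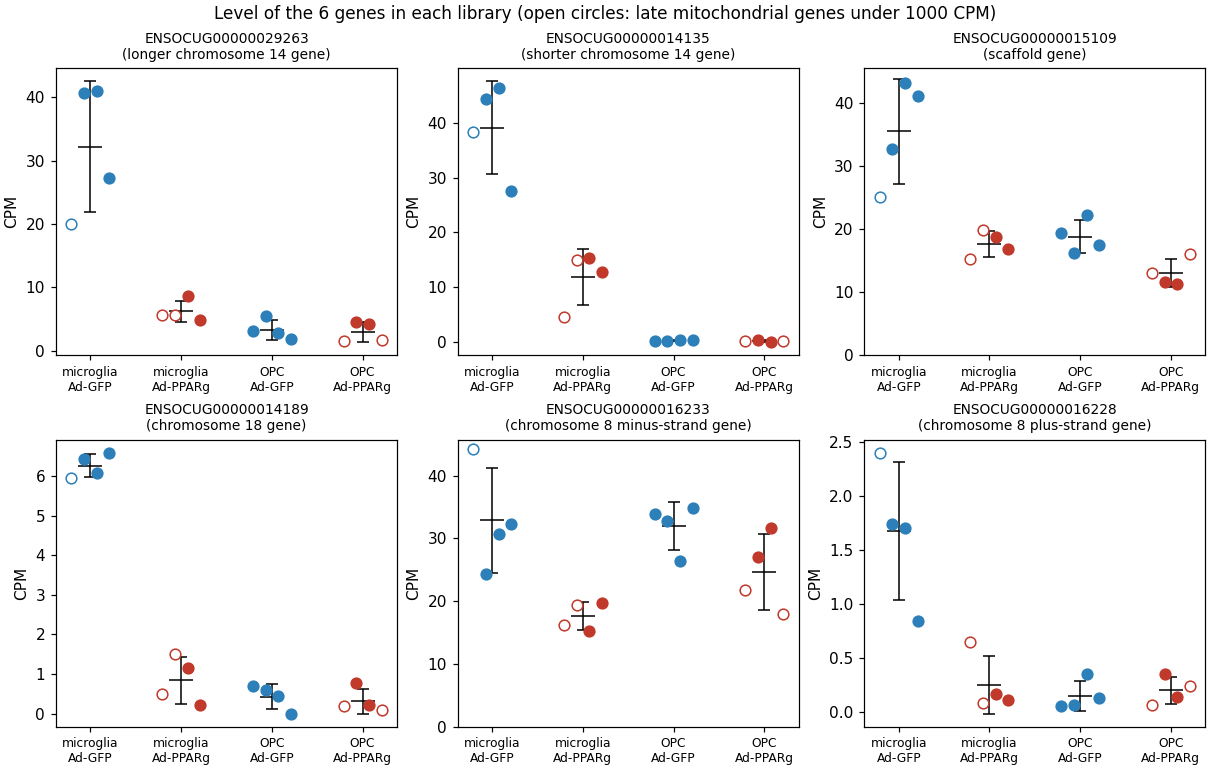
CPM (linear axis) of each gene in the 16 libraries, by cell type and treatment, with the mean and SD of the 4 libraries of a group as bars and open circles for the 5 libraries with low late mitochondrial genes. In microglia the red Ad-PPARg points lie below the blue Ad-GFP points in all 6 panels, while in OPC they separate only for the scaffold gene.

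Levels set per kilobase of exon can be compared between different genes. On the mean of all 8 microglia libraries, all 6 lay below the median gene tested in microglia, between percentiles 9.38 and 47.2. That mean includes the Ad-PPARg libraries, in which the genes were chosen for being low, so these percentiles depend in part on the choice. The highest, 47.2, was that of the chromosome 8 minus-strand gene, at 11.6 CPM per kb. Percentiles within Ad-GFP alone were not tested. After Ad-GFP the order of mean microglial level was the chromosome 8 minus-strand gene (15.1 CPM per kb), the shorter chromosome 14 gene (11.1), the longer chromosome 14 gene (5.81), the scaffold gene (5.00), the chromosome 18 gene (4.55) and the chromosome 8 plus-strand gene (1.57). After Ad-PPARg the same scale gave 8.09 for the chromosome 8 minus-strand gene, 3.39 for the shorter chromosome 14 gene, 2.49 for the scaffold gene, 1.12 for the longer chromosome 14 gene, 0.610 for the chromosome 18 gene and 0.234 for the chromosome 8 plus-strand gene. The longer chromosome 14 and scaffold genes changed places, and the other 4 kept their rank.

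OPC libraries did not enter the choice of the genes, although 3 of the 4 libraries of each OPC group come from kits that also gave microglia. Of the 6 genes, 3 had enough reads to be tested in OPC, and none of these passed (edgeR adjusted p = 1.00 each), nor did any of the 13492 genes tested (0%). DESeq2 called 7 genes in OPC (0.0519%) and limma with sample quality weights 9 (0.0667%), none of them among the 6. With edgeR 166 genes had an unadjusted p under 0.05. Of these, 63 genes (0.467%) were lower after Ad-PPARg, the scaffold gene among them and the other 2 tested genes not. The scaffold gene was at 13.1, 11.6, 11.4 and 16.2 CPM in OPC Ad-PPARg replicates 1 to 4 and at 19.5, 16.2, 22.2 and 17.5 CPM in OPC Ad-GFP replicates 1 to 4. Every Ad-PPARg library lay below every Ad-GFP library, by a margin of 1.00-fold between the nearest 2, as in 75 of the 13492 genes (0.556%). The 75 were counted with TMM factors refitted within OPC, and on that scale the scaffold gene was separated as well. The log2 fold change was -0.52 (SE 0.18, unadjusted p = 0.0178, edgeR adjusted p = 1.00), against -1.02 in microglia, and ranged from -0.62 to -0.41 when each library was left out in turn. With the prefix as a random block in limma the log2 fold change was -0.54 and the unadjusted p was 0.124. The OPC Ad-GFP libraries come from prefixes K195 and K198 only, with 2 libraries each.

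The chromosome 8 minus-strand gene was at 18.0 to 31.7 CPM in OPC Ad-PPARg libraries and 26.4 to 34.8 CPM in OPC Ad-GFP libraries, which overlap. Its log2 fold change of -0.35 (SE 0.20, adjusted p = 1.00 by edgeR) was -0.08 (SE 0.12) in the 6 OPC libraries with high late mitochondrial genes, since Ad-PPARg replicates 1 and 4, on the low side of that split, were its lowest libraries (21.7 and 18.0 CPM). The longer chromosome 14 gene was at 1.49, 4.55, 4.15 and 1.60 CPM in OPC Ad-PPARg replicates 1 to 4 and at 3.17, 5.42, 2.71 and 1.82 CPM in OPC Ad-GFP replicates 1 to 4. These groups overlap, and the log2 fold change of -0.14 (SE 0.49, adjusted p = 1.00 by edgeR) became 0.42 (SE 0.39) without the 2 libraries on the low side of the split, again replicates 1 and 4. Both Ad-PPARg libraries left in that fit, replicates 2 and 3, come from prefix K197.

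The remaining 3 genes were too low in OPC for a test. The shorter chromosome 14 gene had 12 reads over the 4 OPC Ad-PPARg libraries and 15 over the 4 OPC Ad-GFP libraries, a ratio of 1.43 for Ad-GFP over Ad-PPARg (exact 95% interval 0.625 to 3.35). The chromosome 18 gene had 20 and 27 reads, a ratio of 1.54 (0.835 to 2.90). The chromosome 8 plus-strand gene had 12 and 7 reads, a ratio of 0.667 (0.223 to 1.84). These intervals cover counting error only and all include 1, so that no difference in OPC was detected at this depth. The upper limits of the chromosome 18 gene (2.90) and the chromosome 8 plus-strand gene (1.84) lie below their microglial ratios of 6.70 and 8.78. That of the shorter chromosome 14 gene (3.35) lies above its microglial ratio of 3.18. The microglial ratios come from the libraries that chose the genes, and spread between animals is left out of the intervals. The treatment difference in OPC minus that in microglia was 2.20 (SE 0.57) for the longer chromosome 14 gene, 2.32 (SE 1.02) for the chromosome 18 gene, 1.16 (SE 0.81) for the shorter chromosome 14 gene, 0.52 (SE 0.29) for the chromosome 8 minus-strand gene and 0.48 (SE 0.27) for the scaffold gene on the log2 scale. Without OPC Ad-PPARg replicate 2 the value was 1.35 for the chromosome 18 gene and 0.68 for the shorter chromosome 14 gene, and without microglia Ad-GFP replicate 1 it was 0.34 for the chromosome 8 minus-strand gene. These differences contain the microglial contrast that chose the genes and are given as a description, with no test.

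The sorted cell types themselves were compared over all 16 libraries, a contrast that the choice did not use. The choice did require reads in microglia, so the contrast is not wholly free of it. The longer chromosome 14, scaffold and chromosome 8 minus-strand genes had enough reads in both cell types to be tested within each. The longer chromosome 14 gene was lower in OPC by a log2 difference of -2.17 (SE 0.29, edgeR adjusted p = 4.98e-06). The scaffold gene was lower by -0.68 (SE 0.13, edgeR adjusted p = 0.000268). A difference of this kind was common: 4915 of 14699 genes were lower in OPC (33.4%) and 5156 were higher (35.1%), a background that is not limited to genes with reads in microglia. The chromosome 8 minus-strand gene did not pass, at 0.22 (SE 0.14, edgeR adjusted p = 0.183). The shorter chromosome 14 and chromosome 18 genes entered this fit only through their microglial reads, so their values are a description. The fitted log2 difference was -6.44 (SE 0.37) for the shorter chromosome 14 gene, with 0 to 6 reads per OPC library, and it is the only one of the 6 among the 828 genes at least 16-fold higher in microglia. For the chromosome 18 gene, with 0 to 13 reads per OPC library, it was -2.58 (SE 0.51). In bulk libraries, fewer cells of a type and less RNA per cell cannot be told apart.

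The animals that gave both cell types, whose libraries are part of the contrast above, showed the same order. In all 6, the longer chromosome 14, shorter chromosome 14, scaffold and chromosome 18 genes were higher in the microglia library, and the chromosome 8 minus-strand gene was higher in the OPC library, with a microglia over OPC ratio of 0.563 to 0.934. For the shorter chromosome 14 and chromosome 18 genes this order is again a description. The chromosome 18 gene was nearly level in animal K197-4, at 0.210 CPM in microglia and 0.207 CPM in OPC, from 2 and 3 reads. With the animal as a fixed term over these 6 animals, the chromosome 8 minus-strand gene passed as higher in OPC. The log2 difference was 0.39 (SE 0.14, edgeR adjusted p = 0.0298). The chromosome 8 minus-strand gene also passed over all 16 libraries with limma and sample quality weights (0.42, limma adjusted p = 0.00130, median of all genes 0.03). With upper-quartile scaling it passed as well (0.44, edgeR adjusted p = 0.0113), and that scaling moved the median of all genes to 0.19. The microglia over OPC ratio of the longer chromosome 14 gene was 1.17 to 3.81 in the 3 Ad-PPARg kits and 7.55 to 15.0 in the 3 Ad-GFP kits. That of the chromosome 18 gene was 1.01 to 2.72 in the Ad-PPARg kits and 9.19 to 10.3 in the 2 Ad-GFP kits with reads in OPC. The microglial values in these ratios are among those that chose the genes, so their difference between treatments is a description. Microglia-enriched genes held up to 1.18% of counts in OPC, in replicate 2 of Ad-PPARg. That library was also the highest of its group for both genes, at 4.55 and 0.768 CPM. The part of microglial RNA in the OPC values was not tested. The chromosome 8 plus-strand gene was higher in the microglia library in 4 of the 6 animals, the exceptions being Ad-PPARg kits with 1 or 2 microglial reads.

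**Figure D2:**
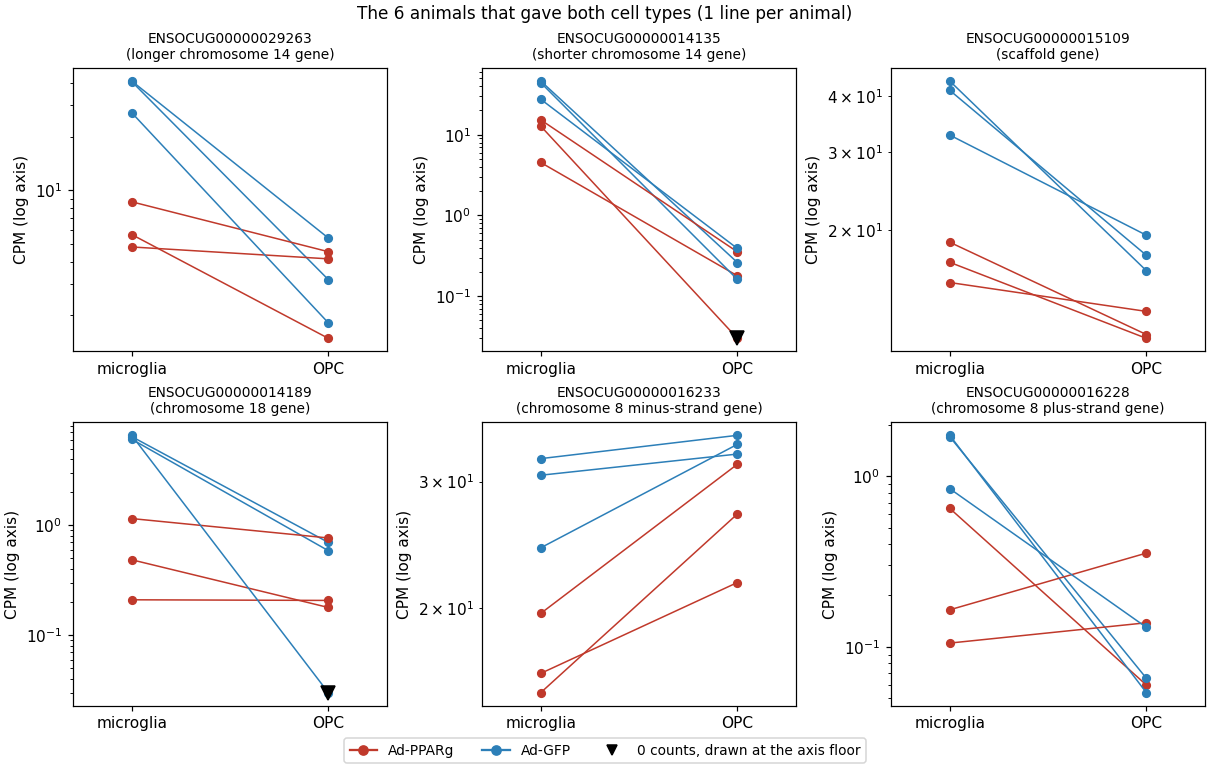
CPM (log axis) of each gene in the microglia and the OPC library of the 6 animals that gave both, 1 line per animal, red for Ad-PPARg and blue for Ad-GFP, with a black triangle for 0 reads. The lines of the chromosome 8 minus-strand gene go up to OPC in all 6 animals, while those of the longer chromosome 14, shorter chromosome 14, scaffold and chromosome 18 genes go down. The smallest fall is 1.01-fold, for the chromosome 18 gene in an Ad-PPARg animal.

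The prefix was examined because kits that share one all had the same treatment. In microglia this leaves 3 prefixes per treatment as the independent units if kits of a prefix are alike. Over prefix means in microglia, the 3 Ad-PPARg values lay below the 3 Ad-GFP values in all 6 genes, as in 268 of 13041 genes (2.06%). This follows from the separation of all libraries given above, which the choice of the genes fixed, and nothing is read from it. The 301 genes with that separation were counted with other TMM factors, so the shares are not on the same scale. The means of the longer chromosome 14 gene were 5.67, 5.69 and 6.74 CPM in the Ad-PPARg prefixes and 20.0, 27.2 and 40.8 CPM in the Ad-GFP prefixes. The 2 kits of prefix K195 were within 1.01-fold of each other, and the 3 prefix means differed by 2.04-fold. For the 6 genes the pair of kits in K195 differed by 1.01-fold to 1.32-fold, and the pair of Ad-PPARg kits in K197 by 1.11-fold to 5.49-fold, the last for the chromosome 18 gene with 14 and 2 reads. With counts summed per prefix, 3 against 3, the log2 fold changes ranged from -2.78 for the chromosome 18 gene to -0.99 for the scaffold and chromosome 8 minus-strand genes, and the edgeR adjusted p from 0.356 to 0.861. With the prefix as a random block in limma, the adjusted p was 0.731 for each of the 6.

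The mitochondrial split crosses the treatments in microglia, which allows values within each side. Among the 5 microglia libraries with high late mitochondrial genes, both Ad-PPARg libraries lay below the 3 Ad-GFP libraries in all 6 genes, as in 8.73% of the genes tested. Among the 3 on the low side, both Ad-PPARg libraries lay below the single Ad-GFP library in all 6, as in 37% of the genes tested. Both outcomes follow from the separation of all libraries given above, which the choice of the genes fixed, and nothing is read from them. The mean Ad-GFP level of the longer chromosome 14 gene was 5.38-fold the Ad-PPARg mean on the high side and 3.52-fold on the low side. The ratio was 9.34 on the high side and 5.98 on the low side for the chromosome 18 gene, and 2.19 and 1.43 for the scaffold gene. It went the other way for the chromosome 8 minus-strand gene, with 1.67 on the high side and 2.49 on the low side, and for the shorter chromosome 14 gene, with 2.80 and 3.92. The low side rests on 1 Ad-GFP library in each of these ratios.

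Adding the split as a term to the microglial fit changed the log2 fold changes little, to -2.23 (SE 0.25) for the longer chromosome 14 gene, -1.68 (SE 0.29) for the shorter, -0.97 (SE 0.16) for the chromosome 8 minus-strand gene and -0.94 (SE 0.18) for the scaffold gene. The first 3 of these then had an edgeR adjusted p under 0.05 (0.0142, 0.0451 and 0.0411), among 45 genes called lower in that fit (0.345%). In the 5 libraries of the high side alone, the longer and shorter chromosome 14 genes were called (edgeR adjusted p = 0.0224 and 0.0473), among 34 such genes (0.249%). Both Ad-PPARg libraries of the high side come from prefix K197, so prefix and treatment cannot be told apart there. All of these settings use the libraries that chose the genes, so the calls add no support.

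Other tools placed the genes differently against the threshold. DESeq2 called 4 of the 6 (all but the chromosome 18 and chromosome 8 plus-strand genes, for which it gave no adjusted p) among 68 genes called lower (0.521%), with an adjusted p of 2.98e-11 for the longer chromosome 14 gene. limma voom with sample quality weights called all 6, among 637 called lower (4.88%). Without a filter on low counts edgeR called the longer chromosome 14 gene (adjusted p = 0.00345), 1 of 2 genes called lower (0.0089%). It also called that gene without Ad-GFP replicate 1 (adjusted p = 0.0253, 0.00732% called lower). In every microglial setting run, leaving out each library included, the fitted log2 fold change of every fitted gene stayed negative. The choice of the genes in these same libraries fixed that direction, and neither it nor the calls of other tools add support.

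**Figure D3:**
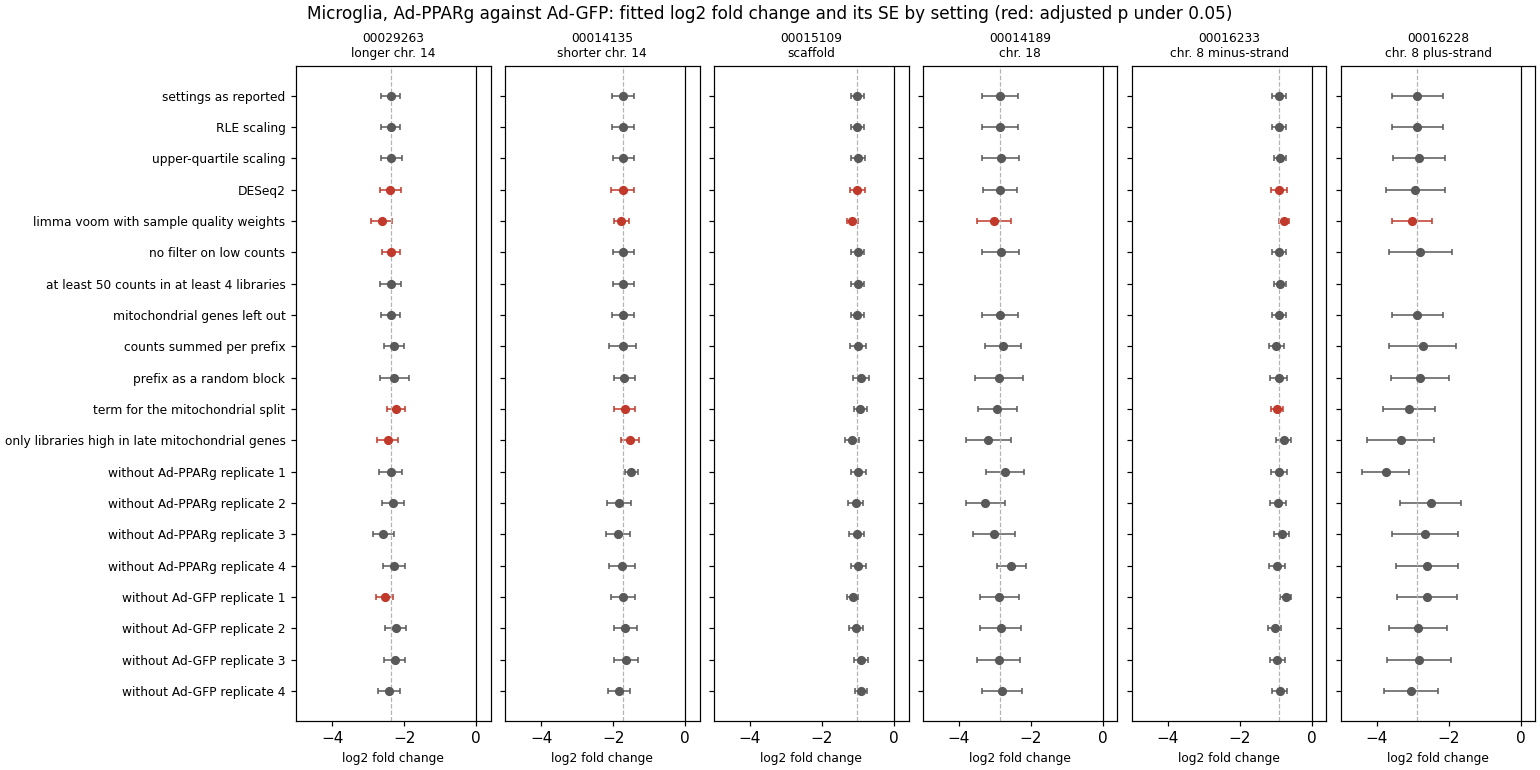
Fitted log2 fold change of each gene in microglia (x axis, Ad-PPARg against Ad-GFP) with its SE as a bar, for the settings as reported and each alternative (y axis), with red for an adjusted p under 0.05 and a dashed line at the reported value. Points stay left of 0 in all panels, which the choice of the genes fixed. The widest shift is that of the chromosome 8 plus-strand gene without Ad-PPARg replicate 1, at -3.76.

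Co-variation of the 6 genes was measured on log2 CPM after taking out the mean of each treatment, over the 8 microglia libraries. Of the 15 pairs, 7 had a positive Pearson r, and the median was -0.05. Over all other tested genes, 38.7 to 66.2% had a positive r with a given one of the 6. None of the 15 passed the exact permutation test within treatments after Benjamini-Hochberg adjustment. The libraries share prefixes, so they are not fully independent.

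The strongest relation was inverse, between the longer chromosome 14 gene and the chromosome 8 minus-strand gene (Pearson r = -0.86, exact permutation p = 0.00694, adjusted p = 0.104, Spearman rho = -0.79, exact permutation p = 0.0521, adjusted p = 0.410, n = 8). It was -0.75 without the 2 libraries farthest from the median of the longer chromosome 14 gene, -0.81 within the 4 Ad-PPARg libraries and -0.90 within the 4 Ad-GFP libraries. For the adjacent chromosome 8 genes r was -0.05 (exact permutation p = 0.911, rho = -0.24, exact permutation p = 0.604, n = 8), with -0.58 within Ad-PPARg, 0.32 within Ad-GFP and -0.54 without the 2 farthest libraries. The plus-strand gene had 1 to 4 reads per Ad-PPARg library, and its coefficient of variation was 107% there against 82.9% from counting error alone, and 38.1% against 28.6% after Ad-GFP. Whether the pair varied together was not detectable at this depth. The 4 genes outside chromosome 8 had positive r with each other, from 0.30 to 0.57. Within the 4 Ad-GFP libraries, however, the shorter chromosome 14 gene had r of -0.57 with the chromosome 18 gene and -0.13 with the scaffold gene. Within the 4 Ad-PPARg libraries these values were 0.39 and 0.89. The remaining pairs of these genes were positive within both treatments. For comparison, over all other tested genes the median r was 0.27 for the shorter chromosome 14 gene, -0.01 for the longer, 0.08 for the scaffold gene, 0.02 for the chromosome 18 gene, 0.16 for the chromosome 8 minus-strand gene and -0.15 for the plus-strand gene.

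**Figure D4:**
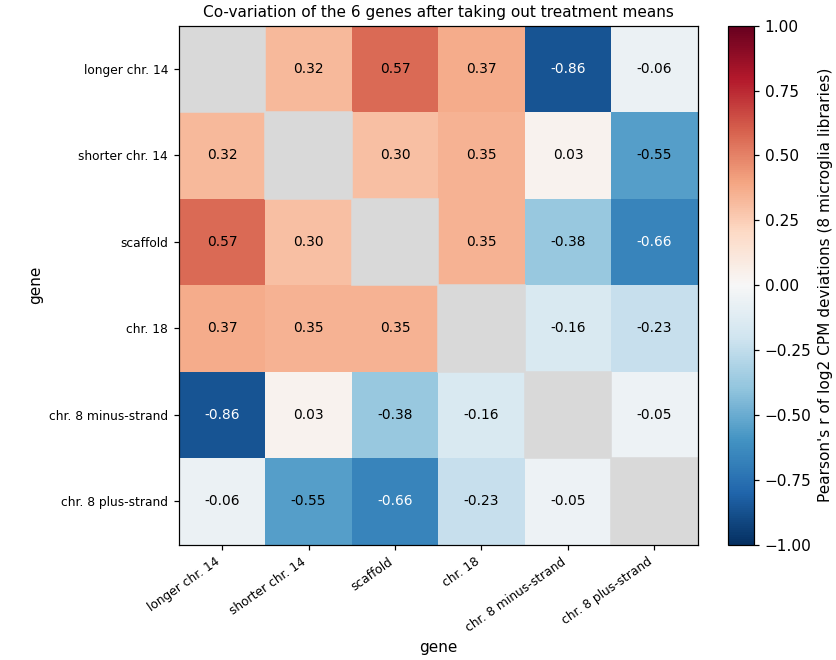
Pearson's r between the genes (rows and columns) of log2 CPM deviations from treatment means over the 8 microglia libraries, on a colour scale from -1 to 1. The 4 genes outside chromosome 8 are positive with each other, and the darkest blue cell is the longer chromosome 14 gene against the chromosome 8 minus-strand gene at -0.86.

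By library, Ad-GFP replicate 3 was the highest of its group in 3 of the 6 genes and the lowest in none, and Ad-GFP replicate 1 was the lowest in 3 and the highest in 2, both on chromosome 8. No Ad-PPARg library was the lowest of its group in more than 2 genes. Genes most like each of the 6 were taken as the 2 with the highest Pearson r of log2 CPM over the 8 microglia libraries, treatment difference included. These 12 genes, at r of 0.940 to 0.988, were all different, and none was another of the 6. The closest to the longer chromosome 14 gene was a gene on chromosome 17 (72033359 to 72033775, r = 0.943), and the scaffold gene came at rank 4 (r = 0.930). The closest to the shorter chromosome 14 gene was on chromosome 3 (100889908 to 100925550, r = 0.984), to the scaffold gene on scaffold GL018705 (2390839 to 2391882, r = 0.960) and to the chromosome 18 gene on chromosome 13 (101181454 to 101255102, r = 0.988). The closest to the chromosome 8 minus-strand gene was on chromosome 12 (10666814 to 10668965, r = 0.982), and to the plus-strand gene on chromosome 1 (49372970 to 49453664, r = 0.956). For the minus-strand gene, the most similar of the other 5 was the chromosome 18 gene, at r = 0.776 and only 383rd among all genes.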

How the data were processed

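The deposited values are read counts per gene, whole numbers and not normalized, 1 file per library. Subread 1.5.2, STAR 2.5.2b and bcl2fastq 2.17 were used per the submitters' processing notes, which give no roles. For the build, annotation release and use of strand in counting, the entry is: not given in the sources used here. All 23669 rows carry a gene identifier. None matched the 38822 genes of the RefSeq table (assembly mOryCun1.1), which also held no sequences, so no gene name or sequence is given.

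Genes were tested by quasi-likelihood in edgeR (R 4.3.3 with version 4.0.16, robust, TMM, default filter, Benjamini-Hochberg over all genes tested, threshold 0.05), fitted on the whole table within each cell type, and over 16 libraries for the cell types and the difference of effects. The SE is the absolute log2 fold change divided by the square root of F. Alternatives used DESeq2 1.42.0 and limma 3.58.1. Fits were tested on simulated data. Levels are CPM with TMM factors from 16 libraries, and log2 CPM used a prior count of 2. Intervals are exact, for counting error only.

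The 6 genes, the mitochondrial split (10 genes of at least 200 bp past position 7000, under 1000 CPM) and the settings were chosen with earlier results of these data known. Named genes were the 6, their annotated neighbours, and the 2 most alike of each, with the gene next in p after ENSOCUG00000016233 added after seeing values. The libraries of a group come from different animals by their identifiers. A chi-square test of the counts gave 6.75 to 234 per gene over the 24 pairs of libraries within groups, so all 16 libraries were kept as separate. Identifiers pair cell types in 6 animals, whose deviations correlated at 0.0945 to 0.286 (median 0.138) over 12413 genes. Pairs from other animals of the same treatment gave -0.352 to 0.399 (median -0.064), a range that covers these values. The pairing thus rests on the identifiers. Replicates were numbered in accession order.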

Additional observations from a re-analysis of the deposited data

Results flagged for a closer look

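A single value stood apart from its group by Dixon's criterion (a gap over 0.829 of the range for 4 libraries), among 24 sets of 4 libraries examined, where chance gives about 1 in 20. The chromosome 8 plus-strand gene ENSOCUG00000016228 was at 0.648 CPM in microglia Ad-PPARg replicate 1 and at 0.0837 to 0.165 CPM in the other 3 libraries of that group. The value rests on 4 reads, against 1 or 2 in the others, and that library had the lowest total of the microglia libraries (6242342 counts).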

How the results depend on the processing

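Microglia gave 0 genes past the adjusted threshold with edgeR (1488 at an unadjusted p under 0.05), against 121 with DESeq2, 1281 with limma and sample quality weights, 4 without a filter, 1 with the prefix as a random block, 91 with a mitochondrial term and 57 in the libraries high in late mitochondrial genes. Leaving out each library gave 0 to 4, reaching 4 when Ad-PPARg replicate 2 was dropped, 3 for Ad-GFP replicate 4 and 1 for Ad-GFP replicate 1. In OPC the count was 0 (166 unadjusted), against 7 with DESeq2, 9 with limma and 47 in the libraries high in late mitochondrial genes, and 0 to 2 with a library left out (2 without Ad-PPARg replicate 4). The difference of effects gave 0 (402 unadjusted), 2 with DESeq2 and 4 with limma, and 0 to 1 with a library left out (1 without microglia Ad-PPARg replicate 2). The comparison of cell types gave 10071 genes, and 9718 to 10549 with a library left out. The cause of these shifts was not tested.

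Of the alternatives for the values of the 6 genes, 95 of 112 in microglia kept their direction and side of the threshold and 17 passed it, while for the cell types 121 of 124 kept theirs and 3 passed. The microglial alternatives use the libraries that chose the genes, so their counts add no support. In OPC 5 of 51 changed sign, all for ENSOCUG00000029263, to 0.46 with limma, 0.42 in the libraries high in late mitochondrial genes, and, with 1 library dropped, to 0.09 (Ad-PPARg replicate 1), 0.06 (Ad-PPARg replicate 4) and 0.21 (Ad-GFP replicate 2), within a range of -0.45 to 0.21 over the libraries dropped. For the difference of effects, which contains the contrast that chose the genes, limma gave -0.25 for ENSOCUG00000014135 and 2.88 for ENSOCUG00000029263.

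With the animal as a replicate block, the cell types differed in 10411 genes (random block) and 10075 (fixed term), and the difference of effects in 0. Of the 5 genes tested in these comparisons, the block changed the call of ENSOCUG00000016233 only, with the fixed term. ENSOCUG00000016228 was not tested in them. Low reads limit ENSOCUG00000014189 and ENSOCUG00000016228, which a minimum of 50 counts removes.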
